A study of Homo sapiens with 12 samples.

Results

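The genes described are 33 named components of protein folding and quality control in the endoplasmic reticulum (ER) and of the unfolded protein response (UPR), chosen by name from 40591 named genes in the deposited count table. All 33 were found, no member shared its symbol with another line, and 32 had enough reads to be tested. RNA came from ARPE-19, an established human cell line derived from retinal pigment epithelium (RPE), and 12 libraries of poly(A) RNA fell into 4 groups of 3. The WT group carries no named open reading frame (ORF) in the labels, and no day of collection is given for it. The other groups are stable lines collected after 4 days of expression of an ORF: GFP, a fluorescent protein used here as the control ORF, GSTA4, a glutathione S-transferase that conjugates the lipid peroxidation product 4-hydroxynonenal, or OSK. OSK is the usual abbreviation of OCT4 (POU5F1), SOX2 and KLF4, and these 3 transcripts stood at 623 CPM (reads of a gene scaled to a fixed library size) or more in the libraries labelled OSK and at 2.67 CPM or less in the others. Whether the replicates of an ORF are separate stable lines or cultures of 1 line is not stated in the labels. The ORF and the line that carries it therefore cannot be told apart, and p-values measure the spread between these libraries, which may be technical.

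Proteins that enter the ER are bound by the Hsp70 chaperone BiP (HSPA5) and its cochaperones, linked by disulfide isomerases, and held by the lectins calnexin and calreticulin until they fold. Misfolded proteins are sent back to the cytosol for ER-associated degradation, in which the ligase SYVN1 (HRD1) and its partner SEL1L form the central complex. When unfolded protein accumulates, the sensors ATF6, IRE1 (ERN1) and PERK (EIF2AK3) start the UPR. Cleaved ATF6 and spliced XBP1 then raise transcription of chaperone and degradation genes through ER stress response elements, while PERK lowers translation and raises ATF4. The RPE is a secretory and phagocytic layer beneath the photoreceptors, with a large load of membrane and secreted protein.

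The ER stress response element (ERSE) is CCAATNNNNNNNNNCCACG, in which NF-Y binds the CCAAT box and ATF6 the CCACG box, and ERSE-II is ATTGGNCCACG. Both were searched on both strands of 35116 RefSeq promoter windows (GRCh38.p14), each 300 bases long, and 29 of the 33 members had at least 1 window (35 windows in all). PDIA3, DERL1, DERL3 and SEC24D had none in that table. ERSE was found in 0.0769% of all windows and in 9 of the 35 member windows, which belong to CALR, CANX, CRELD2, HSP90B1, HSPA5, PDIA6 and XBP1. The same CANX match is counted in each of its overlapping windows. The members were chosen as ER folding and UPR genes, and the UPR acts through these elements, so the shares are a description and no test. ERSE-II was found in 0.0541% of all windows and in 3 member windows, those of HERPUD1, HYOU1 and SDF2L1. The element is shown first in the 250 bases before the start of HSPA5, the gene from which it is best known, with both boxes in capitals.
HSPA5, chr9:125241344-125241593, minus strand: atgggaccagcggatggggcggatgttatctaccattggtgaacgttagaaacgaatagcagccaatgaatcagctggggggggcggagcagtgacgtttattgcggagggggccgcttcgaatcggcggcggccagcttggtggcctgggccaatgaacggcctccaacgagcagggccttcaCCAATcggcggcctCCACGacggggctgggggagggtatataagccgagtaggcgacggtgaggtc

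The other 9 genes with an element are shown by the match and its flanks, all upstream of the start, so that the position and strand of the boxes can be compared beside the expression values. Capitals mark the CCAAT and CCACG boxes or their reverse complements, and the spacer between them is in lower case.
XBP1, ERSE, chr22:28800583-28800641, minus strand: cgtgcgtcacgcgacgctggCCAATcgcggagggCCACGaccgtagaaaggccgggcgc
HSP90B1, ERSE, chr12:103930196-103930254, plus strand: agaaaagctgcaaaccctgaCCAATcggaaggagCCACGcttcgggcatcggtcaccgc
HSP90B1, ERSE, chr12:103930301-103930359, plus strand: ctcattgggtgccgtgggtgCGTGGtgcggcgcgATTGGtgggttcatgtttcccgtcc
HYOU1, ERSE-II, chr11:119057360-119057410, minus strand: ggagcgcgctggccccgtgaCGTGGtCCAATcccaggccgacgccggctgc
HYOU1, ERSE-II, chr11:119057254-119057304, minus strand: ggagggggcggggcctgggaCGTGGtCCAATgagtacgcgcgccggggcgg
SDF2L1, ERSE-II, chr22:21642094-21642144, plus strand: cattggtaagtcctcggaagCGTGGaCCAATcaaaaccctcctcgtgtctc
PDIA6, ERSE, chr2:10812833-10812891, minus strand: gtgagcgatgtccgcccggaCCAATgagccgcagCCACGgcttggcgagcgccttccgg
CALR, ERSE, chr19:12938364-12938422, plus strand: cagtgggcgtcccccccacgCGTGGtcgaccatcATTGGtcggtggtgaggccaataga
CANX, ERSE, chr5:179698758-179698816, plus strand: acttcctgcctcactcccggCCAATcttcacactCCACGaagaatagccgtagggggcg
CRELD2, ERSE, chr22:49918534-49918592, plus strand: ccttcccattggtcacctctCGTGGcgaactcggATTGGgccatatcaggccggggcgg
HERPUD1, ERSE-II, chr16:56932005-56932055, plus strand: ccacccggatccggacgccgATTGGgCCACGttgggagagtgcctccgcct

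HSP90B1 and HYOU1 each held 2 exact matches. Only exact letters were searched, so near matches, in HSPA5 or elsewhere, are not marked. The CANX match lay upstream of 2 annotated starts and spanned another start, for which no sequence is printed. A UPRE core (TGACGTGG), the site preferred by spliced XBP1, was found in 0.729% of all windows and in those of DNAJC10 and HYOU1, and in HYOU1 it overlapped an ERSE-II by its CCACG box. The CCACG box alone was common, in 38.1% of all windows and in 27 of the 35 member windows. A match of letters is not evidence of binding, and no match says only that these letters are absent from the window.

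**Figure D1:**
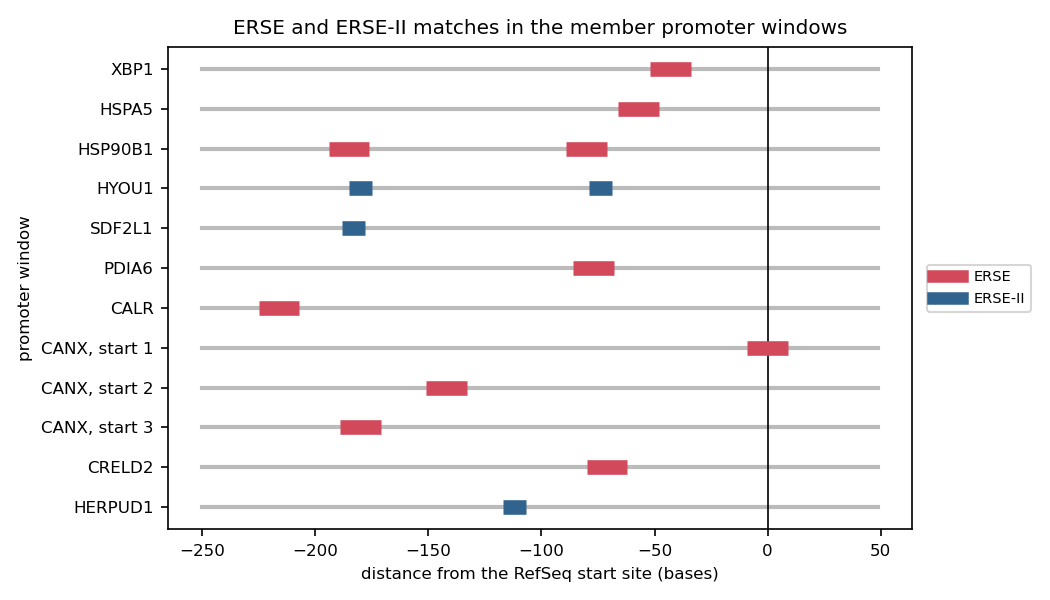
Position of ERSE (red) and ERSE-II (blue) matches in the 12 member windows that hold one, as distance in bases from the RefSeq start site (vertical line) with grey bars for the 300-base windows. HSP90B1 and HYOU1 show 2 matches each, and 1 of the 3 CANX windows has its match across the start.

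Libraries held 12630675 to 17045454 reads assigned to genes, so that a count of 0 allows a level of up to 0.177 to 0.228 CPM, taking 3 reads as the limit for counting error only. Tested members had between 121 reads (SDF2L1) and 28661 reads (CALR) in a library. GFP replicate 1 had reads in 27349 named genes, against 19488 to 22073 in the others, and WT replicate 1 differed most from its group. ORF labels held: GSTA4 was at 396 to 431 CPM in the GSTA4 libraries and at 4.42 to 22.5 CPM elsewhere. Of the 17 RPE markers, which sum to 2198 to 2532 CPM in GFP, 2425 to 2666 in WT, 1580 to 1655 in GSTA4 and 1407 to 1474 in OSK, 3 to 4 were under 1 CPM in each group, and the visual cycle gene RPE65 had 0 to 10 reads per library, with TTR and CLDN19 at 0 in every GSTA4 library. By gene, of the 14 tested RPE markers, 10 (71.4%) rose and 2 (14.3%) fell in GFP against WT. Over all tested genes, 11% rose and 11.2% fell there (edgeR adjusted p under 0.05 throughout). The markers' median log2 fold change was 0.74, although the sums of both groups overlapped. In OSK against GFP, 1 (7.14%) rose and 12 (85.7%) fell (median -0.79, all genes 23.1% and 22.8%). In OSK against WT, 3 (21.4%) rose and 5 (35.7%) fell (median 0.043, all genes 22.7% each way). In GSTA4 against GFP, 1 (7.14%) rose and 8 (57.1%) fell (median -0.53, all genes 14.7% and 14.6%). In GSTA4 against WT, 5 (35.7%) rose and 7 (50%) fell (median -0.54, all genes 19.7% and 19%). Of 10 pluripotency markers, 8 were under 1 CPM in every group, NANOG was at 0 in all OSK libraries, and the sum (438 to 527 CPM in GFP, 150 to 188 in WT, 35.1 to 43.0 in GSTA4, 96.4 to 108 in OSK) was mostly PODXL. Of 10 fibroblast markers, 6 were under 1 CPM in every group and the sum was 800 to 825 CPM in OSK against 1144 to 1369 in the others. These lists moved with the groups, as did the mitochondrial share of reads (5.99% to 6.54% in WT and GFP, 7.55% to 7.82% in GSTA4, 6.81% to 6.89% in OSK), and their part in the results was not tested. In bulk RNA, fewer cells of a type and less RNA per cell cannot be told apart.

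Summed over the members, transcripts of ER folding and the UPR were most abundant in the OSK line and least abundant in the GSTA4 line. Together the 33 genes took up 0.805% of the reads in OSK (SD 0.0301, n = 3), 0.493% in GSTA4 (SD 0.00732, n = 3), 0.591% in GFP (SD 0.0193, n = 3) and 0.603% in WT (SD 0.0173, n = 3). After scaling, their summed level was 8390 ± 329 CPM in OSK, 4925 ± 104 CPM in GSTA4, 5883 ± 360 CPM in GFP and 6010 ± 263 CPM in WT (SD, n = 3). By library, the sums were 8053, 8408 and 8709 CPM in OSK and 4809, 4958 and 5008 CPM in GSTA4, while the GFP and WT libraries overlapped each other between 5544 and 6261 CPM. The 4 most abundant members, CALR, CANX, HSPA5 and HSP90B1, held 56.3% to 60.04% of member reads in every library, so the sums mainly show those genes.

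**Figure D2:**
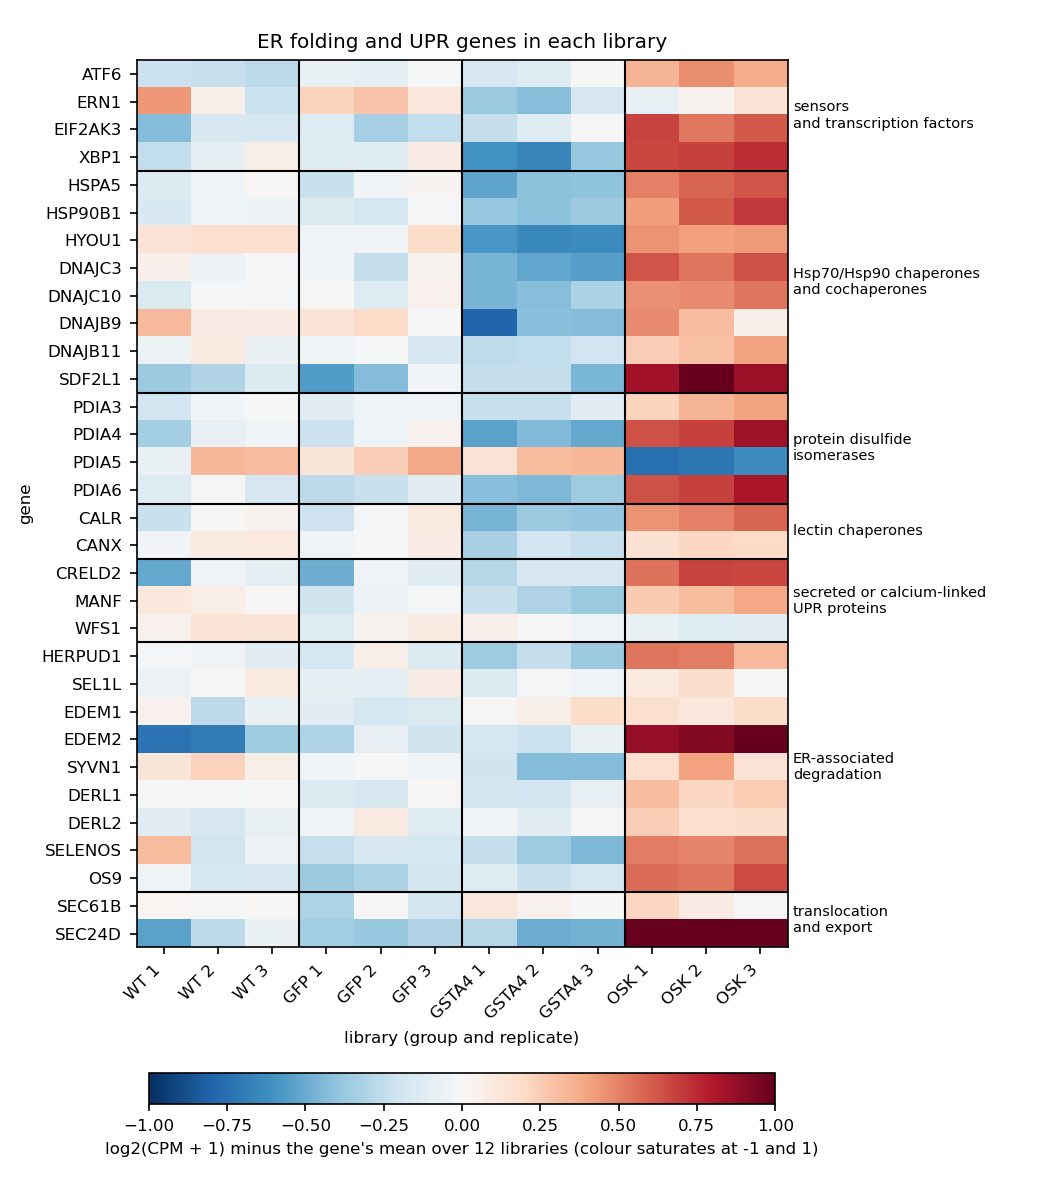
Each tested member (rows, grouped by role) in each library (columns), as log2(CPM + 1) minus the gene's mean over the 12 libraries. The 3 OSK columns are red for most rows and blue for PDIA5, and the GSTA4 columns are blue for most chaperone rows.

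Against GFP, 27 of the 32 tested members rose in OSK at an edgeR adjusted p under 0.05 (quasi-likelihood test, Benjamini-Hochberg over 15179 genes, n = 3 per group), where 23.1% of all tested genes were higher. PDIA5 alone fell, where 22.8% of all genes were lower. The other 4, ERN1, DNAJB9, WFS1 and SEL1L, did not pass. The median of all 32 tested members in OSK against GFP was 0.49 on the log2 scale, against -0.019 over all genes. In GSTA4 against GFP, 15 members fell, where 14.6% of all genes were lower, and EDEM1 alone rose, where 14.7% were higher, with a median of -0.16 against 0.0082 over all genes. Both comparisons use the same 3 GFP libraries. Log2 fold changes of single genes are given ± SE from the fit.

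Set directly against each other, OSK and GSTA4 differed further: 27 members were higher in OSK (24.1% of all genes) and PDIA5 was lower (23.8% of all genes), with a median log2 difference of 0.78 against -0.014 over all genes. Across the 4 groups, 29 of 32 members differed by the edgeR F test, where 66.9% of all genes did, and WFS1, SEL1L and SEC61B did not pass. With scaling by library size alone, all genes shifted towards lower calls in OSK against GFP (2761 higher and 4180 lower, in place of 3508 and 3454), and among the members 23 were higher and 2 lower. Of the 118 member results called over 6 comparisons, 102 stayed called under all 19 alternative settings and none of the 192 member results reversed a called direction.

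**Figure D3:**
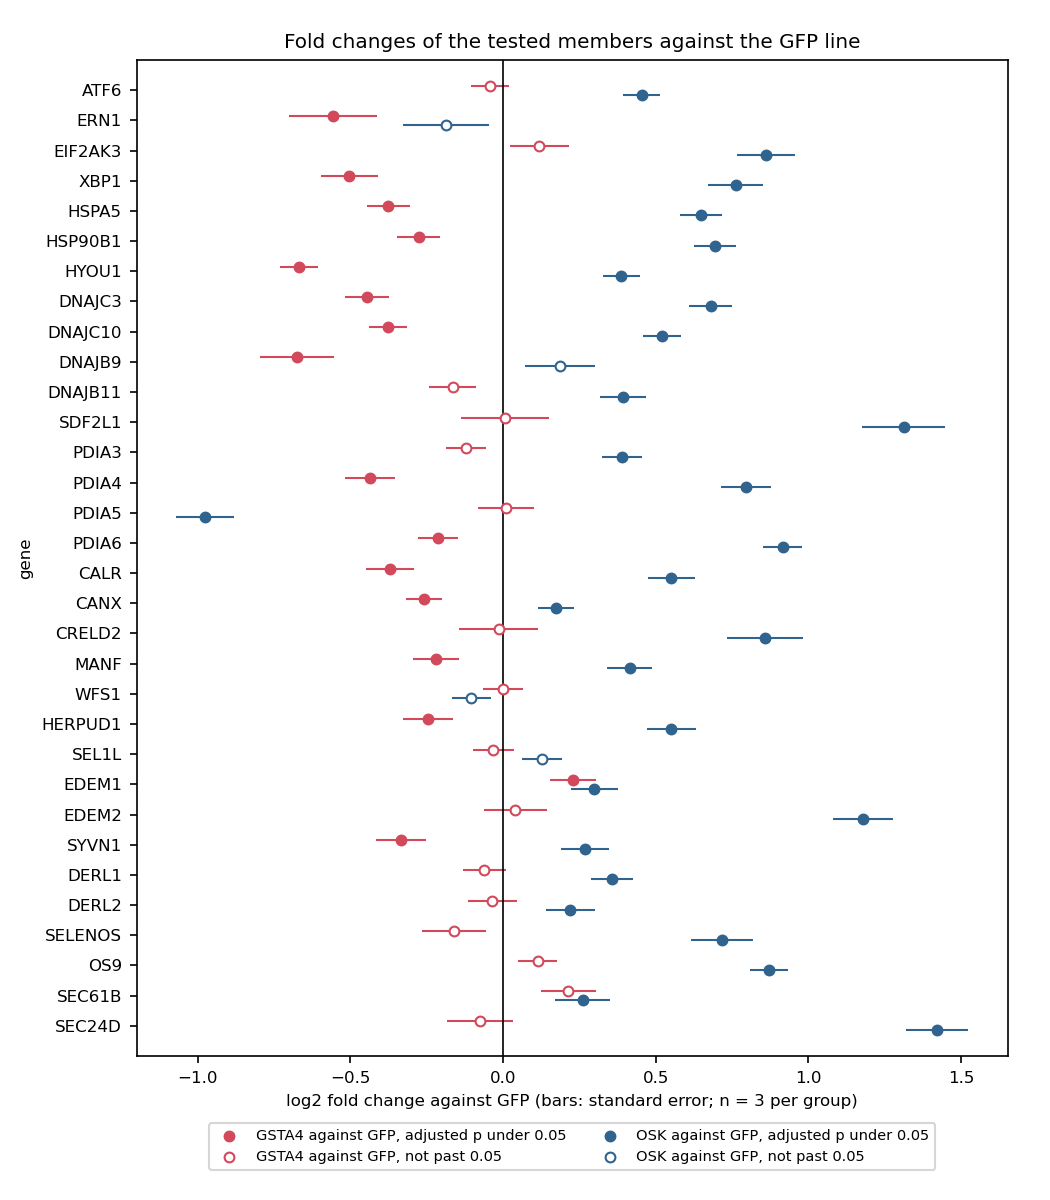
Log2 fold change of each tested member against GFP (horizontal axis) for GSTA4 in red and OSK in blue, with standard errors and 3 libraries per group. Filled points passed an edgeR adjusted p under 0.05, and the blue points lie right of the red ones for every gene except PDIA5 and WFS1.

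Among the sensors and their transcription factor, ATF6, EIF2AK3 and XBP1 rose in OSK against GFP and ERN1 did not pass the test, while ERN1 and XBP1 fell in GSTA4. XBP1 (chr22:28794555-28800597, minus strand, GRCh38), whose messenger RNA is spliced by IRE1 to encode the active factor, stood at 43.4, 43.4 and 50.1 CPM in GFP, 39.9, 44.1 and 49.3 CPM in WT, 30.8, 29.6 and 36.3 CPM in GSTA4 and 75.99, 76.8 and 79.6 CPM in OSK. Every OSK library lay above every other library and every GSTA4 library lay below all WT and GFP libraries. Its log2 fold change was 0.76 ± 0.089 (edgeR adjusted p = 5.18e-07) in OSK against GFP, a 1.70-fold level, and -0.50 ± 0.093 (edgeR adjusted p = 0.000321) in GSTA4 against GFP. Between OSK and GSTA4 the XBP1 level differed 2.40-fold (edgeR adjusted p = 2.84e-10). The counts are per gene, so spliced and unspliced XBP1 were not analysed here.

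ATF6 (chr1:161766294-161964070, plus strand), the membrane-bound factor released by cleavage in the Golgi, was at 92.7, 91.6 and 96.9 CPM in GFP, 83.7, 83.0 and 81.2 CPM in WT, 86.7, 89.5 and 97.01 CPM in GSTA4 and 123, 135 and 126 CPM in OSK. The OSK libraries were the highest, and GFP and GSTA4 overlapped. ATF6 had a log2 fold change of 0.45 ± 0.061 (edgeR adjusted p = 3.64e-06) in OSK against GFP and -0.042 ± 0.062 (edgeR adjusted p = 0.658) in GSTA4 against GFP. EIF2AK3 (chr2:88556741-88627576, minus strand), the kinase PERK, was at 28.4, 24.7 and 26.2 CPM in GFP, 22.8, 27.9 and 27.8 CPM in WT, 26.4, 28.7 and 31.1 CPM in GSTA4 and 50.4, 45.5 and 48.3 CPM in OSK. Its OSK values lay above all others, which overlapped. PERK messenger RNA was 1.82-fold higher in OSK than in GFP, a log2 fold change of 0.86 ± 0.094 (edgeR adjusted p = 2.09e-07), and the change in GSTA4 did not pass, at 0.12 ± 0.097 (edgeR adjusted p = 0.394).

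ERN1 (chr17:64039142-64130819, minus strand), the kinase and endoribonuclease IRE1, was at 19.2, 20.1 and 17.6 CPM in GFP, 22.4, 16.9 and 13.9 CPM in WT, 12.4, 11.9 and 14.4 CPM in GSTA4 and 15.4, 16.7 and 17.9 CPM in OSK. WT alone spanned nearly the whole range, GSTA4 lay below GFP, and OSK overlapped GFP. ERN1 fell in GSTA4 against GFP, with a log2 fold change of -0.56 ± 0.14 (edgeR adjusted p = 0.00617), and stood at -0.19 ± 0.14 (edgeR adjusted p = 0.301) in OSK against GFP. The difference between OSK and GSTA4, 0.37 ± 0.15 (edgeR adjusted p = 0.041), was lost with library size alone and without GSTA4 replicate 1, GSTA4 replicate 2, OSK replicate 2 or OSK replicate 3 (edgeR adjusted p = 0.0844 to 0.134).

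Chaperones of the Hsp70 and Hsp90 families and their cochaperones moved in both lines: 7 of the 8 rose in OSK against GFP (median 0.58 on the log2 scale) and 6 of the 8 fell in GSTA4 against GFP (median -0.38). HSPA5 (chr9:125234853-125241330, minus strand), BiP itself, was at 521, 596 and 620.0 CPM in GFP, 554, 598 and 614 CPM in WT, 423, 458 and 459 CPM in GSTA4 and 863, 913 and 944 CPM in OSK. No OSK or GSTA4 library overlapped another group. Its level was 1.57-fold that of GFP in OSK, a log2 fold change of 0.65 ± 0.069 (edgeR adjusted p = 1.37e-07), and 0.771-fold in GSTA4, a log2 fold change of -0.37 ± 0.069 (edgeR adjusted p = 0.0003). HSP90B1, the Hsp90 of the ER lumen (GRP94), had means of 728 ± 42.8 CPM in GFP, 743 ± 31.6 in WT, 601 ± 10.3 in GSTA4 and 1179 ± 118 in OSK (SD, n = 3), with log2 fold changes against GFP of 0.69 ± 0.07 (edgeR adjusted p = 6.11e-08) in OSK and -0.28 ± 0.07 (edgeR adjusted p = 0.005) in GSTA4.

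HYOU1 (chr11:119044189-119057202, minus strand), the nucleotide exchange factor of BiP, was at 267, 266 and 309.9 CPM in GFP, 299.5, 306 and 307 CPM in WT, 182, 174 and 175 CPM in GSTA4 and 373, 362 and 366 CPM in OSK. All GSTA4 libraries lay far below the rest, close to each other. On the log2 scale HYOU1 fell in GSTA4, with a value of -0.67 ± 0.062 (edgeR adjusted p = 4.85e-08) against GFP, and rose in OSK, with 0.39 ± 0.061 (edgeR adjusted p = 2.55e-05). DNAJC3, a BiP cochaperone also known as an inhibitor of PERK, was at 76.5, 66.4 and 80.6 CPM in GFP, 81.2, 75.0 and 77.3 CPM in WT, 56.5, 54.5 and 53.1 CPM in GSTA4 and 122, 114 and 122 CPM in OSK. The groups ordered as GSTA4, then WT and GFP together, then OSK. DNAJC3 log2 fold changes against GFP were -0.45 ± 0.072 (edgeR adjusted p = 8.38e-05) in GSTA4 and 0.68 ± 0.07 (edgeR adjusted p = 8.99e-08) in OSK.

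DNAJB9, the cochaperone ERdj4 that targets BiP to IRE1, was at 32.5, 33.8 and 29.3 CPM in GFP, 37.1, 31.3 and 31.0 CPM in WT, 16.6, 21.8 and 21.5 CPM in GSTA4 and 41.3, 36.8 and 30.6 CPM in OSK. GSTA4 was the lowest group, without overlap, and the OSK values overlapped those of WT and GFP. It fell in GSTA4 against GFP, with a value of -0.68 ± 0.12 (edgeR adjusted p = 0.000245) on the log2 scale, while its OSK value of 0.19 ± 0.12 (edgeR adjusted p = 0.2) did not pass. SDF2L1, a partner of DNAJB11 that keeps clients from aggregating, was at 9.20, 10.1 and 13.7 CPM in GFP, 10.6, 11.2 and 12.6 CPM in WT, 11.7, 11.7 and 9.91 CPM in GSTA4 and 25.9, 30.2 and 26.2 CPM in OSK. Only OSK stood apart, at 2.48 times GFP, a log2 fold change of 1.31 ± 0.14 (edgeR adjusted p = 9.05e-08), and in GSTA4 the value was 0.0073 ± 0.14 (edgeR adjusted p = 0.978). DNAJC10, a J-domain disulfide reductase, was 0.52 (SE 0.062) in OSK and -0.38 (SE 0.063) in GSTA4 on the log2 scale, both past the threshold. DNAJB11, the cochaperone ERdj3, rose in OSK (0.39 ± 0.075 (edgeR adjusted p = 0.00022)) and stood at -0.16 ± 0.077 (edgeR adjusted p = 0.116) in GSTA4.

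**Figure D4:**
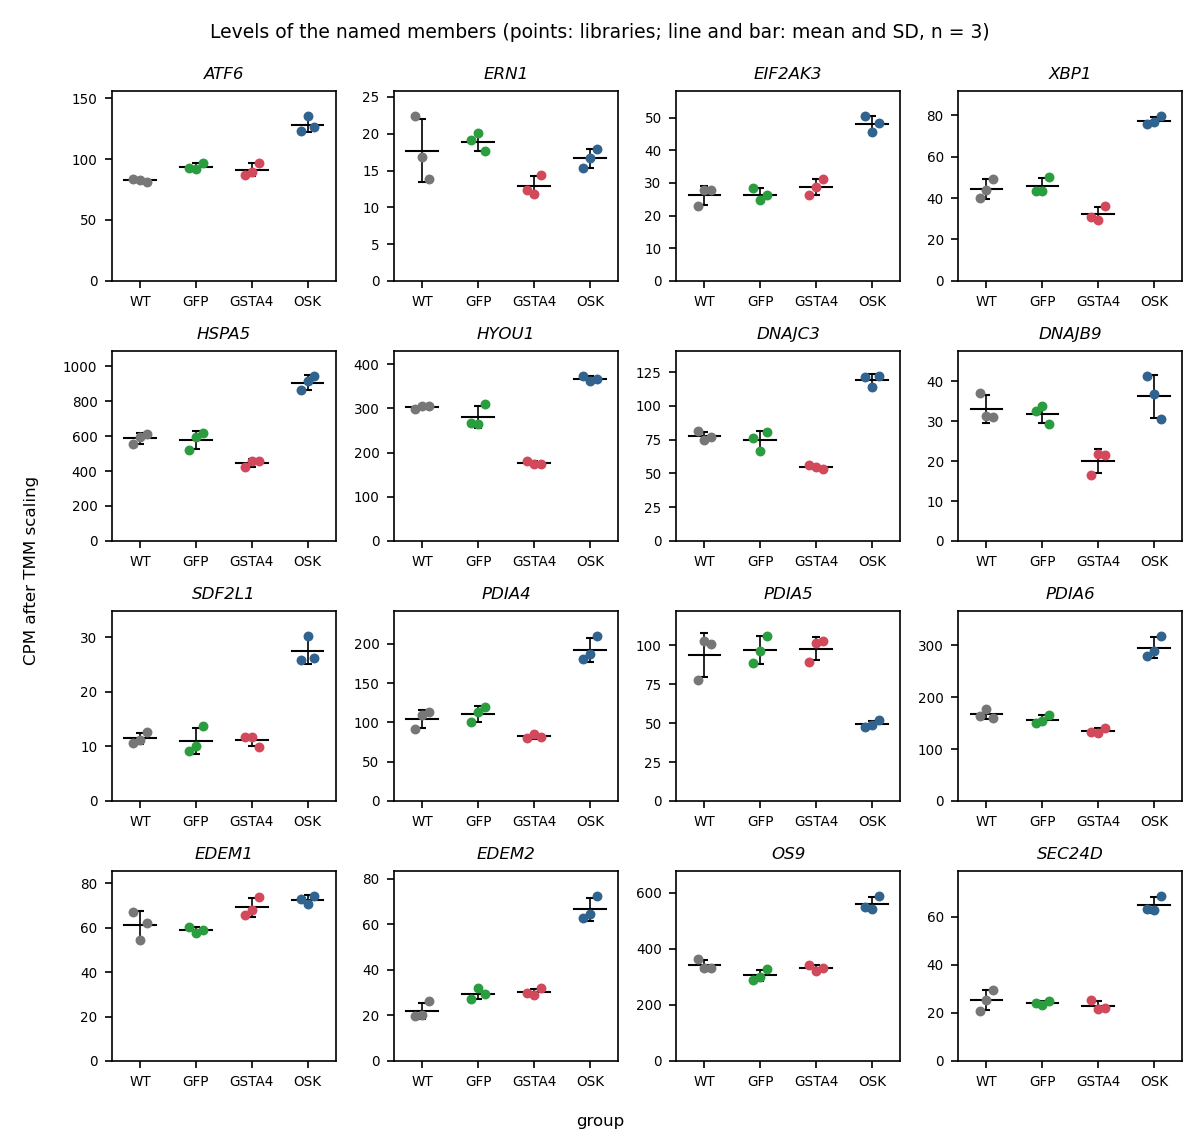
CPM after TMM scaling of 16 named members in each library (points), by group, with the group mean and SD (n = 3) and vertical axes from 0. OSK lies above the other groups for 12 of the genes, while PDIA5 is lower there, ERN1 and DNAJB9 overlap GFP, and EDEM1 overlaps GSTA4.

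Disulfide isomerases split: PDIA3, PDIA4 and PDIA6 rose in OSK against GFP and PDIA5 fell. PDIA4 was at 99.99, 113 and 120.0 CPM in GFP, 91.6, 109.6 and 113 CPM in WT, 79.8, 85.3 and 81.2 CPM in GSTA4 and 181, 187 and 209.9 CPM in OSK. OSK was the highest group and GSTA4 the lowest, with no overlap. The PDIA4 log2 fold change against GFP was 0.80 ± 0.081 (edgeR adjusted p = 7.01e-08) in OSK and -0.43 ± 0.083 (edgeR adjusted p = 0.000425) in GSTA4. PDIA6, which also acts on IRE1 and PERK, was at 149, 154 and 166 CPM in GFP, 165, 178 and 160.2 CPM in WT, 133, 132 and 140.5 CPM in GSTA4 and 280.2, 289 and 318 CPM in OSK. Its OSK values were again apart from the rest, with a log2 fold change of 0.92 ± 0.064 (edgeR adjusted p = 2.74e-10). The PDIA6 value in GSTA4, -0.21 ± 0.065 (edgeR adjusted p = 0.0174), was lost without GFP replicate 3, GSTA4 replicate 1 or GSTA4 replicate 2 (edgeR adjusted p = 0.0671 to 0.0810). PDIA3, the isomerase that works with calnexin and calreticulin, was 0.39 ± 0.065 (edgeR adjusted p = 4.90e-05) in OSK and -0.12 ± 0.065 (edgeR adjusted p = 0.177) in GSTA4.

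PDIA5 (chr3:123067062-123225227, plus strand), an isomerase reported to activate ATF6, was at 88.4, 96.6 and 106 CPM in GFP, 77.7, 103 and 101 CPM in WT, 89.5, 101 and 103 CPM in GSTA4 and 47.7, 48.5 and 51.8 CPM in OSK. Its OSK libraries lay below every other library, and the other 3 groups overlapped. OSK stood at 0.509 times the GFP level, a log2 fold change of -0.98 ± 0.095 (edgeR adjusted p = 4.00e-08), with -0.99 ± 0.095 (edgeR adjusted p = 2.52e-08) against GSTA4 and -0.93 ± 0.095 (edgeR adjusted p = 7.28e-08) against WT. GSTA4 differed from GFP by 0.011 ± 0.092 (edgeR adjusted p = 0.946). The window before its start is shown because it is the member that moved against the rest. PDIA5 is 1 of 19 members whose windows held neither ERSE nor ERSE-II. Of those 19, 14 rose in OSK against GFP, where 23.1% of all tested genes were higher. The capitals mark a CCACG box that overlaps another on the opposite strand.
PDIA5, chr3:123066775-123067024, plus strand: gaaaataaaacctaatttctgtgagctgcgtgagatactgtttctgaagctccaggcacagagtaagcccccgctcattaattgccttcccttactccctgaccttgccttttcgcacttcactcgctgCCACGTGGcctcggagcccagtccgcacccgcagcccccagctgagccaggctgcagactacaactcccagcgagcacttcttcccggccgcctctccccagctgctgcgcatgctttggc

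Both lectin chaperones, which retain glycoproteins until they fold, fell in GSTA4 and rose in OSK against GFP. CALR, soluble calreticulin, had means of 1246 ± 130.4 CPM in GFP, 1232 ± 116 in WT, 964 ± 34.6 in GSTA4 and 1825 ± 85.1 in OSK (SD, n = 3). On the log2 scale it differed from GFP by 0.55 ± 0.078 (edgeR adjusted p = 6.42e-06) in OSK and -0.37 ± 0.078 (edgeR adjusted p = 0.00109) in GSTA4. CANX, membrane-bound calnexin, had means of 952 ± 40.8, 983 ± 47.6, 796 ± 37.0 and 1074 ± 23.1 CPM in the same order. The calnexin value in OSK was 0.17 ± 0.06 (edgeR adjusted p = 0.0221), a call lost with library size alone and without GFP replicate 1, GFP replicate 2 or OSK replicate 2 (edgeR adjusted p = 0.0504 to 0.105), and its value in GSTA4 was -0.26 ± 0.06 (edgeR adjusted p = 0.00259).

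Of the secreted or calcium-linked UPR proteins, CRELD2 and MANF rose in OSK and WFS1 did not pass against GFP. CRELD2, a secreted disulfide isomerase partner, had means of 19.2 ± 3.28 CPM in GFP, 19.1 ± 0.919 in GSTA4 and 35.0 ± 1.82 in OSK (SD, n = 3), with a log2 fold change of 0.86 ± 0.12 (edgeR adjusted p = 9.33e-06) in OSK and -0.014 ± 0.13 (edgeR adjusted p = 0.951) in GSTA4. MANF, a trophic factor retained in the ER by BiP, had log2 fold changes of 0.41 ± 0.073 (edgeR adjusted p = 9.70e-05) in OSK and -0.22 ± 0.075 (edgeR adjusted p = 0.0341) in GSTA4. Its call in GSTA4 was lost without a filter on low counts and without GFP replicate 2, GFP replicate 3, GSTA4 replicate 2 or GSTA4 replicate 3 (edgeR adjusted p = 0.0862 to 0.143). WFS1, the ER membrane protein mutated in Wolfram syndrome, lay between 81.4 and 98.0 CPM in all 12 libraries, at -0.10 ± 0.065 (edgeR adjusted p = 0.202) in OSK against GFP, and passed as lower with library size alone or without GFP replicate 1 (edgeR adjusted p = 0.0213 and 0.0456).

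Components of ER-associated degradation rose in OSK for 8 of the 9 tested (median log2 fold change 0.36), while in GSTA4 HERPUD1 and SYVN1 fell and EDEM1 rose. EDEM2 (chr20:35115357-35147364, minus strand), a mannosidase that marks glycoproteins for degradation, was at 27.1, 31.8 and 29.3 CPM in GFP, 19.8, 20.3 and 26.1 CPM in WT, 29.8, 28.9 and 32.0 CPM in GSTA4 and 62.8, 64.6 and 72.4 CPM in OSK. OSK was far above the rest, and WT was below GFP without overlap. EDEM2 rose 2.26-fold in OSK against GFP, a log2 fold change of 1.18 ± 0.099 (edgeR adjusted p = 4.21e-09), and was 0.04 ± 0.10 (edgeR adjusted p = 0.806) in GSTA4 against GFP. OS9, the lectin that passes such glycoproteins to SEL1L, was at 289, 300.1 and 328 CPM in GFP, 365, 330.1 and 333 CPM in WT, 342, 319.6 and 331 CPM in GSTA4 and 549, 542 and 588 CPM in OSK. The OSK libraries were above all others, with a log2 fold change of 0.87 ± 0.063 (edgeR adjusted p = 4.69e-10), and GSTA4 overlapped GFP, at 0.11 ± 0.063 (edgeR adjusted p = 0.196).

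EDEM1, another member of the EDEM family, was at 60.5, 57.6 and 59.0 CPM in GFP, 67.2, 54.3 and 62.1 CPM in WT, 65.7, 67.8 and 74.0 CPM in GSTA4 and 73.1, 70.5 and 74.2 CPM in OSK. GSTA4 and OSK overlapped each other and lay above GFP, and OSK lay above WT as well, which GSTA4 overlapped. EDEM1 differed from GFP by 0.23 ± 0.076 (edgeR adjusted p = 0.0277) in GSTA4 and 0.30 ± 0.076 (edgeR adjusted p = 0.00288) in OSK on the log2 scale, and between OSK and GSTA4 by 0.07 ± 0.075 (edgeR adjusted p = 0.472). The GSTA4 call was lost without GFP replicate 2, GFP replicate 3 or GSTA4 replicate 3 (edgeR adjusted p = 0.0701 to 0.131).

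SYVN1, the ligase HRD1, differed from GFP by -0.33 ± 0.081 (edgeR adjusted p = 0.00359) in GSTA4 and by 0.27 ± 0.079 (edgeR adjusted p = 0.00875) in OSK, the latter lost with library size alone and without OSK replicate 2 (edgeR adjusted p = 0.0547 and 0.0826). Its partner SEL1L did not pass, at 0.13 ± 0.066 (edgeR adjusted p = 0.119) in OSK and -0.031 ± 0.066 (edgeR adjusted p = 0.762) in GSTA4, although without GFP replicate 3 the OSK value passed (edgeR adjusted p = 0.0300). Between OSK and GSTA4, SEL1L stood at 0.16 ± 0.066 (edgeR adjusted p = 0.0519) and passed under 10 of the 19 alternatives, among them RLE scaling, DESeq2 and the 6 libraries alone (adjusted p = 0.0108 to 0.0472). HERPUD1, a ubiquitin-like protein of the same complex, was 0.55 ± 0.079 (edgeR adjusted p = 8.69e-06) in OSK and -0.24 ± 0.082 (edgeR adjusted p = 0.0288) in GSTA4, a call lost without a filter and without GFP replicate 2, GSTA4 replicate 1 or GSTA4 replicate 3 (edgeR adjusted p = 0.0543 to 0.148). SELENOS, a selenoprotein that recruits the ATPase VCP, rose in OSK by 0.72 ± 0.10 (edgeR adjusted p = 7.31e-06), and its GSTA4 value was -0.16 ± 0.11 (edgeR adjusted p = 0.28).

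The derlins are rhomboid-like proteins of the export channel. DERL1 rose in OSK by 0.36 ± 0.069 (edgeR adjusted p = 0.000246) and was -0.061 ± 0.07 (edgeR adjusted p = 0.557) in GSTA4. DERL2 was 0.22 ± 0.08 (edgeR adjusted p = 0.0292) in OSK, a call lost with library size alone, without a filter and without GFP replicate 1, GFP replicate 3 or OSK replicate 1 (edgeR adjusted p = 0.0637 to 0.157). DERL3 was untested, with 0 to 15 reads in a library. DERL3 also shares 77.0% of its exonic bases with SMARCB1 on the opposite strand, so its few reads cannot be assigned to it with certainty.

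Of the remaining members, SEC24D (chr4:118722823-118838683, minus strand), a cargo adaptor of the COPII coat that carries folded protein out of the ER, was at 24.2, 23.4 and 24.8 CPM in GFP, 20.9, 25.5 and 29.4 CPM in WT, 25.2, 21.6 and 21.9 CPM in GSTA4 and 63.0, 62.6 and 68.5 CPM in OSK. The OSK libraries stood well above the rest, which overlapped. SEC24D had the largest log2 fold change of all members in OSK against GFP, 1.42 ± 0.10 (edgeR adjusted p = 3.74e-10), a 2.68-fold level, and was -0.075 ± 0.11 (edgeR adjusted p = 0.65) in GSTA4. SEC61B, a subunit of the channel through which new proteins enter the ER, was 0.26 ± 0.089 (edgeR adjusted p = 0.0215) in OSK, a call lost with library size alone and without GFP replicate 1, GFP replicate 3 or OSK replicate 1 (edgeR adjusted p = 0.0536 to 0.113). In GSTA4 it was 0.21 ± 0.09 (edgeR adjusted p = 0.081), which passed without GFP replicate 2 (edgeR adjusted p = 0.0239).

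Members with an ERSE or ERSE-II in their window (10 genes) all rose in OSK against GFP, with a median of 0.67 on the log2 scale, and 8 of them fell in GSTA4 against GFP, with a median of -0.27. Of the 19 members with a window but no element, 14 rose and 1 fell in OSK (median 0.39), and 7 fell and 1 rose in GSTA4 (median -0.042). Over all tested genes, 23.1% rose and 22.8% fell in OSK, and 14.7% rose and 14.6% fell in GSTA4. The member counts describe the 29 genes with a window, and the difference between the groups of genes was not tested. The elements with the sequences above include those of HYOU1 and XBP1, which fell most in GSTA4 among the 10, and of SDF2L1 and CRELD2, which did not pass there and rose in OSK.

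Levels between genes were compared per kilobase of exon (GENCODE 29, union of exons), in the GFP group. CALR was highest, at 459 ± 48.0 CPM per kb (SD, n = 3). HSP90B1, CANX and HSPA5 followed at 155 ± 9.11, 153 ± 6.54 and 148 ± 13.2 CPM per kb, which do not differ beyond their spread. OS9 and PDIA3 came next, at 59.2 ± 3.89 and 48.1 ± 1.46, and lay apart. The sensors were low: ATF6 was at 11.9 ± 0.352, EIF2AK3 at 4.87 ± 0.350 and ERN1 at 1.74 ± 0.115 CPM per kb, the last above only DERL3 (0.124 ± 0.0573). SEC24D, at 2.43 ± 0.0684 CPM per kb, was the next above ERN1. Within groups, the median coefficient of variation over the tested members was 6.98% in GFP, 5.92% in WT, 4.73% in GSTA4 and 4.96% in OSK, with ERN1 widest in WT (24.4%), SDF2L1 in GFP (21.7%) and DNAJB9 in GSTA4 and OSK (14.8% and 14.9%). In GENCODE 29, 18 of the 33 members share exonic bases with another gene, most on the opposite strand. Over 20% is shared with 1 gene in DERL3 and in PDIA6 (25.2%, with ATP6V1C2), both on the opposite strand. The strand setting of the counting is not given in the sources used here, so the effect on their levels is not known. A share of bases is not a share of reads. Overlaps on the same strand, among them PDIA5 with SEC22A (12.2%) and SYVN1 with FAU (7.24%), do not depend on that setting, and their effect was not tested.

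Few members were called between the GFP line and WT, where the ORF, the line and any difference in collection day cannot be told apart. In GFP against WT, EDEM2 rose by 0.41 ± 0.10 (edgeR adjusted p = 0.00819) and ATF6 by 0.18 ± 0.062 (edgeR adjusted p = 0.0398), where 11% of all genes were higher, and no member fell by edgeR, where 11.2% of all genes were lower. At an unadjusted p under 0.05, 2 members were lower, and DESeq2 called 1, OS9. The median was -0.047, against 0.0098 over all genes. The ATF6 call was lost without a filter, in a fit of these 6 libraries alone and without any single WT or GFP library, GSTA4 replicate 2, OSK replicate 2 or OSK replicate 3 (edgeR adjusted p = 0.0509 to 0.188).

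In OSK against WT, 24 members rose (22.7% of all genes were higher) and PDIA5 and WFS1 fell (22.7% were lower), with a median of 0.50 against -0.01 over all genes. EDEM2 had the largest value, 1.59 ± 0.10 (edgeR adjusted p = 4.36e-11), followed by SEC24D at 1.36 ± 0.10 (edgeR adjusted p = 5.37e-10) and SDF2L1 at 1.26 ± 0.13 (edgeR adjusted p = 1.23e-07). WFS1, at -0.21 ± 0.064 (edgeR adjusted p = 0.0124), was not called without OSK replicate 2 (edgeR adjusted p = 0.0558). CANX, SYVN1 and SEC61B, called higher in OSK against GFP, did not pass against WT. Their values were 0.13 ± 0.06 (edgeR adjusted p = 0.0892), 0.11 ± 0.079 (edgeR adjusted p = 0.275) and 0.098 ± 0.088 (edgeR adjusted p = 0.389). In GSTA4 against WT, 17 members fell (19% of all genes were lower) and EDEM2 rose (19.7% were higher), with a median of -0.25 against 0.0057 over all genes. HYOU1 and DNAJB9 fell most, with values of -0.78 ± 0.062 (edgeR adjusted p = 3.83e-09) and -0.73 ± 0.12 (edgeR adjusted p = 6.08e-05). ERN1 also fell, at -0.46 ± 0.14 (edgeR adjusted p = 0.0155), a call lost without WT replicate 1 (log2 fold change -0.25, edgeR adjusted p = 0.155), GSTA4 replicate 1 or GSTA4 replicate 2. SELENOS and DNAJB11, not called in GSTA4 against GFP, were -0.40 ± 0.10 (edgeR adjusted p = 0.00449) and -0.22 ± 0.076 (edgeR adjusted p = 0.0256) here, and the DNAJB11 call was lost without a filter and without WT replicate 2, GSTA4 replicate 1 or GSTA4 replicate 2 (edgeR adjusted p = 0.0657 to 0.125).

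The 195 other genes of the pathway, in 8 lists, were compared in the same fits, with values as log2 fold change against GFP ± SE (n = 3 per group) for the genes with the lowest adjusted p in each direction. Shares in brackets are of the tested genes of a list, to be read against 23.1% higher and 22.8% lower over all genes in OSK and 14.7% higher and 14.6% lower in GSTA4. Of 33 tested folding enzymes outside the members, 23 (69.7%) rose and 3 (9.09%) fell in OSK (median 0.34). Among those that rose, P4HB, the main disulfide isomerase, was 0.83 ± 0.072 and the membrane thioredoxin TMX1 0.90 ± 0.084. The collagen chaperone SERPINH1 fell (-0.42 ± 0.11), as did the peroxidase GPX7, which had 5 to 11 reads in GFP and 0 to 1 in OSK. In GSTA4, 4 (12.1%) rose and 4 (12.1%) fell (median 0.035), both shares below those of all genes, with FKBP10 0.49 ± 0.12 and PRDX4 0.36 ± 0.086 higher and TXNDC5 -0.92 ± 0.20 and PPIC -0.39 ± 0.11 lower.

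N-glycosylation and glucose trimming, with 30 tested genes, had 16 (53.3%) higher and 3 (10%) lower in OSK (median 0.24): RPN2 0.75 ± 0.063 and UAP1 0.87 ± 0.079 rose and TUSC3 -0.42 ± 0.071 and ALG9 -0.71 ± 0.17 fell. In GSTA4, 6 (20%) rose, with OST4 0.45 ± 0.10 and ALG14 0.62 ± 0.15, and 6 (20%) fell, with DPAGT1 -0.39 ± 0.084 and STT3A -0.21 ± 0.055 (median -0.063). Signal recognition and translocation, with 23 tested, had 9 (39.1%) higher in OSK, with SEC11C 0.73 ± 0.075 and SEC62 0.45 ± 0.053, and 2 (8.7%) lower, SRP72 -0.21 ± 0.067 and SRP14 -0.16 ± 0.055 (median 0.13). The count of 2 lower came to 0 without GFP replicate 2, OSK replicate 1 or OSK replicate 2 and to 1 without a filter or OSK replicate 3. In GSTA4, 2 (8.7%) rose, SSR4 0.39 ± 0.073 and SRP14 0.22 ± 0.055, and 3 (13%) fell, with SPCS2 -0.29 ± 0.064 and SSR1 -0.20 ± 0.057 (median -0.02), both shares below those of all genes. ER-associated degradation outside the members, with 27 tested, had 11 (40.7%) higher in OSK, with VCP 0.51 ± 0.057, and 2 (7.41%) lower, MARCHF6 -0.21 ± 0.062 and UBE2J1 -0.18 ± 0.067 (median 0.18). With library size alone, 7 of these degradation genes rose in OSK. Only 1 in place of 2 fell without a filter, GFP replicate 2, GFP replicate 3 or any single OSK replicate. In GSTA4, MARCHF6 0.25 ± 0.062 rose (3.7%) and 4 (14.8%) fell, with FAM8A1 -0.46 ± 0.065 and ERLIN1 -0.41 ± 0.081 (median 0.043).

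The ATF4 and CHOP arm, the set of stress genes downstream of PERK and other kinases of eIF2, had other counts. Of its 17 tested genes, 8 (47.1%) rose and 2 (11.8%) fell in GSTA4, and 3 (17.6%) rose and 7 (41.2%) fell in OSK. In GSTA4, the transcription factors ATF3 1.74 ± 0.19 and ATF5 0.65 ± 0.10 rose, and CEBPB -0.49 ± 0.083 and CREBRF -0.19 ± 0.069 fell. ATF3 had a mean of 14.7 ± 0.722 CPM in GSTA4 and 4.39 ± 0.769 CPM in GFP (SD, n = 3). In OSK, VLDLR 0.75 ± 0.072 and CEBPG 0.43 ± 0.12 rose, while the phosphatase subunit PPP1R15A -0.99 ± 0.081 and the secreted hormone STC2 -0.79 ± 0.092 fell. Directly, OSK was lower than GSTA4 for 10 (58.8%) of the 17 and higher for 4 (23.5%). Over all tested genes, 23.8% were lower and 24.1% higher there. The list's median was 0.29 in GSTA4 and -0.34 in OSK against GFP. In GSTA4 against WT, 7 (41.2%) rose and 4 (23.5%) fell (median 0.012), where 19.7% of all genes were higher and 19% lower. In OSK against WT, 2 (11.8%) rose and 8 (47.1%) fell (median -0.49), where 22.7% of all genes went each way. In GFP against WT, 0 rose and 3 (17.6%) fell (median -0.17), where 11% of all genes were higher and 11.2% lower.

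Of 14 tested UPR regulators outside the members, 7 (50%) rose and 2 (14.3%) fell in OSK (median 0.15). In GSTA4, 3 (21.4%) rose and 1 (7.14%) fell (median 0.041). NFYB, a subunit of NF-Y, the factor that binds the CCAAT box shown in capitals above, was 1.38 ± 0.10 in GSTA4 (92.4 ± 4.09 CPM against 35.5 ± 2.64 in GFP, SD, n = 3) and -0.29 ± 0.11 in OSK. Its partner NFYA fell in both, with values of -0.44 ± 0.089 and -0.24 ± 0.089. The 2 regulators that fell in OSK, NFYA and NFYB, came to 0 without GFP replicate 1, OSK replicate 2 or OSK replicate 3, and to 1 without GFP replicate 2, GFP replicate 3 or OSK replicate 1. The ER stress inhibitor TMBIM6 rose in both, by 0.18 ± 0.058 (edgeR adjusted p = 0.0224) in GSTA4 and 0.60 ± 0.058 in OSK. The 3 regulators that rose in GSTA4 came to 1 without GSTA4 replicate 1 or GSTA4 replicate 2. CREB3L2 0.79 ± 0.08, a factor related to ATF6, rose in OSK.

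Among 31 genes of the COPII coat, cargo receptors and KDEL receptors, 21 (67.7%) rose in OSK, with LMAN2 0.93 ± 0.076 and SURF4 0.63 ± 0.055, and ERGIC2 -0.29 ± 0.11 fell (3.23%), with a median of 0.26. The ERGIC2 call was lost without GSTA4 replicate 2, OSK replicate 1 or any single GFP replicate. In GSTA4, 3 (9.68%) rose, with ERGIC3 0.34 ± 0.055 and ERGIC1 0.23 ± 0.068, and 5 (16.1%) fell, with KDELR2 -0.29 ± 0.061 and SEC24A -0.44 ± 0.12 (median -0.0031). KDELR2 is a receptor that returns BiP and its partners to the ER. Of 14 tested genes of ER calcium handling, 9 (64.3%) rose and 3 (21.4%) fell in OSK (median 0.36), and 4 (28.6%) fell in GSTA4 (median -0.035). The calcium release channels ITPR1 2.47 ± 0.068 and ITPR3 1.19 ± 0.085 rose in OSK, where ITPR1 reached 637 ± 56.2 CPM against 115 ± 1.23 in GFP (SD, n = 3), while STIM2 -0.29 ± 0.086 and RCN1 -0.25 ± 0.08 fell. ITPR1 was -0.60 ± 0.069 and the calcium-binding protein CALU -0.39 ± 0.056 in GSTA4.

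Small counts in these lists depended on single libraries and settings. In GSTA4 against GFP, the N-glycosylation genes that fell ranged from 2 to 8 over the alternatives (2 to 3 when any single GSTA4 replicate was left out), and those of the COPII list from 1 to 5 (1 without GSTA4 replicate 2, 2 without GSTA4 replicate 1, 3 without a filter or GFP replicate 2). The COPII genes that rose there came to 1 without GSTA4 replicate 1 and 5 without WT replicate 1. Folding enzymes that fell there dropped to 2 without GFP replicate 2, GFP replicate 3, GSTA4 replicate 1 or GSTA4 replicate 2. The ATF4 and CHOP genes that fell there dropped to 1 under 12 of the alternatives. In the same comparison, the UPR regulators that rose dropped to 1 without GSTA4 replicate 1 or GSTA4 replicate 2. The degradation genes that rose came to 4 without WT replicate 1 and to 2 under 4 other alternatives. The signal recognition genes that fell came to 5 with a filter at a mean of 1 CPM, and 1 calcium gene rose without GFP replicate 1 or GFP replicate 3. In OSK against GFP, the ATF4 and CHOP genes that fell dropped to 4 without GFP replicate 3, and the UPR regulators that rose to 4 with library size alone. The calcium genes that fell there dropped to 0 without OSK replicate 1 and to 1 without GFP replicate 1 or OSK replicate 3. Counts of genes that rose in OSK among the folding enzymes (18 to 23), the N-glycosylation genes (14 to 17) and the COPII list (16 to 24) stayed within 1.5 times the reported values.

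**Figure D5:**
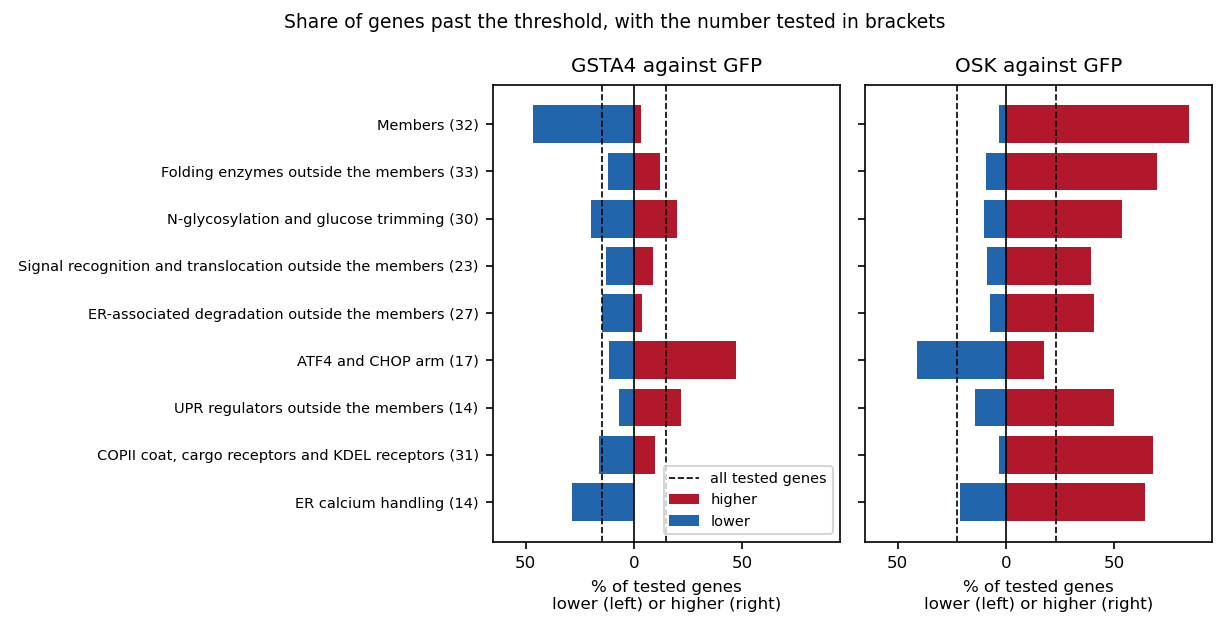
Share of tested genes past an edgeR adjusted p under 0.05 in the members and the 8 pathway lists, lower to the left and higher to the right, for GSTA4 and OSK against GFP, with dashed lines at the share over all tested genes. Members show 46.9% lower in GSTA4 and 84.4% higher in OSK, and the ATF4 and CHOP arm has its longer bar on the opposite side in both panels.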

How the data were processed

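Read counts per gene for 12 libraries were deposited by the authors as 1 table of raw counts. Per the labels' protocols, RNA was extracted with TRIzol and libraries were made from poly(A) RNA with a NEBNext Ultra II kit. STAR 2.7.1a and featureCounts 1.6.2 are named, per the submitters' processing notes, with human and mouse genome builds, but their settings, the annotation and the strand setting are not given in the sources used here. Of 60605 lines, 20014 without a gene name were left out (0.485% to 0.822% of reads).

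Libraries were scaled by TMM, genes were filtered by filterByExpr, and 15179 genes were fitted in 1 model with 4 group means by edgeR 4.0.16 (R 4.3.3; quasi-likelihood test, two-sided, Benjamini-Hochberg adjustment, threshold 0.05), after the fit was tested on simulated data. CPM values are TMM-scaled. Alternatives were RLE scaling, library size alone, other filters, DESeq2 1.42.0, a replicate block, the 6 libraries compared alone and each library left out.

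The members, gene lists and motifs were chosen with earlier results of these data known. Libraries are given one by one for ATF6, ERN1, EIF2AK3, XBP1, HSPA5 and the 5 largest called changes per direction in 4 comparisons, and from each pathway list the 2 called genes per direction with the lowest adjusted p. Promoter sequences are from RefSeq (GRCh38.p14), and exon lengths from GENCODE 29. 1 gene of a pathway list is not reported here by name. Protein sequences were not used here.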

Additional observations from a re-analysis of the deposited data

How the results depend on the processing

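No called direction reversed under any alternative. With library size alone, 2 members were lower in OSK against GFP and 2 in OSK against GSTA4, and the medians were 0.41 (OSK against GFP), 0.71 (OSK against GSTA4) and 0.43 (OSK against WT). In GFP against WT, 1 member was higher without a filter and in the 6-library fit, and 1 was lower by DESeq2. The replicate block gave 1 member lower in GFP against WT (OS9, adjusted p = 0.0462, called also by DESeq2) and 2 calls that other settings gave too: SEL1L in OSK against GSTA4, called under 10 of the 19 alternatives, and CANX in OSK against WT, also called by DESeq2. Over 18 same-numbered pairs of libraries the correlation of deviations from the group mean was -0.0282 to 0.183, against -0.128 to 0.0959 over the other pairs. It was over 0.1 in 3 pairs, each with WT replicate 1, and 8 of 12 libraries correlated best with a library of their own number. Whether the numbers pair samples was not tested. The main fit used no pairing, and the replicate block is the alternative that allows for it. Leaving out each library in turn gave, in GFP against WT, 1 to 2 members higher and 0 to 2 lower; in GSTA4 against GFP, 0 to 1 higher (0 without GFP replicate 3 or GSTA4 replicate 3); in GSTA4 against WT, 1 to 2 higher (2 without WT replicate 1) and a median of -0.29 to -0.21; in OSK against GFP, 1 to 2 lower (2, with WFS1, without GFP replicate 1); in OSK against WT, 1 to 2 lower (1 without OSK replicate 2); and in OSK against GSTA4, a median of 0.76 to 0.84. The cause of these changes was not tested.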
